A study of Rattus norvegicus with 4 samples.

Results

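Ion channel genes were followed in neural stem cells and in the neurons derived from them. The set held 46 rat genes: the pore and accessory subunits of voltage-gated potassium, sodium, calcium and HCN channels, the calcium-activated potassium channels, and the inward rectifiers with the sulfonylurea receptor gene Abcc8. Members were chosen by gene identity, with earlier results of these data already known. Their probes were found through the transcript accession that the array files give. In all, 41 of the 46 had a named probe among 8927 named genes. Kcna6, Kcnd3, Cacna1d, Cacna1h and Cacnb4 were not analysed here.

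The study compared 4 groups of Fisher 344 rat cells on Agilent 1-colour arrays, each labelled with Cy3 and each standing for a whole group. They were neural stem cells of the hippocampus (HPC NSC), neural stem cells of the olfactory bulb (OB NSC), neurons derived from the hippocampal stem cells (HPC Neu) and neurons derived from the olfactory bulb stem cells (OB Neu), and the series title names adult hippocampus. No treatment, transgene or allele is named for any group. Each array held total RNA mixed from 3 independent preparations, so it averages over them and shows no spread between them. The stem cell arrays shared 1 slide and the neuron arrays shared another, so cell state and slide cannot be told apart.

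These genes set the electrical behaviour of a cell. Sodium channels start the action potential, voltage-gated potassium channels end it, calcium channels turn voltage into calcium entry, and HCN channels carry the pacemaker current. Inward rectifiers hold the resting potential, and their ATP-sensitive form, built from a Kir pore and a sulfonylurea receptor, links the membrane to metabolism. In brain, Kcnj10 and Kcnj16 are known from astrocytes, Kcnj8 with Abcc9 from pericytes and smooth muscle, and large voltage-gated sodium and potassium currents from mature neurons.

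A level below is the log2 processed signal of a gene's brightest probe minus the 75th percentile of that array, so a level of 0 is that percentile. Values run hippocampus before olfactory bulb. Levels of different genes come from different probes and are not compared with each other. "Well above background" is the scanner software's own call on a spot. Where 1 of 2 arrays missed that call, its side was set to the lowest signal called well above background on that array, or to the spot's measured signal where that was the greater, and such a difference is written "at least". Differences are in log2 units, and 1 unit, a factor of 2, was the threshold for calling one.

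The arrays labelled neurons were checked against marker genes. Of 12 mature neuron markers with a probe, 11 and 10 were well above background on the stem cell arrays and 8 and 9 on the neuron arrays. The vesicle gene Syt1 and the GABA synthesis gene Gad1 were well above background on neither neuron array, and the glutamate transporter gene Slc17a7 on none of the 4 arrays, while Snap25 was at -0.96 and -0.51 on the neuron arrays. All 10 astrocyte and all 10 pericyte, fibroblast and smooth muscle markers with a probe were well above background on both neuron arrays. On the stem cell arrays 4 and 5 of the astrocyte and 2 and 2 of the pericyte markers were. The summed signal of the pericyte list, in multiples of the 75th percentile, was 0.226 and 0.189 on the stem cell arrays and 383.5 and 517.8 on the neuron arrays. That of the astrocyte list was 8.38 and 8.25 in stem cells and 135.5 and 146.0 in neurons. Detected in the same array order were 7, 7, 8 and 8 of 8 stem and progenitor, 6, 7, 7 and 7 of 8 neuroblast, and 6 of 6 oligodendrocyte lineage markers on every array. For microglia these were 3, 3, 6 and 6 of 8, for endothelium 1, 1, 3 and 3 of 4, and for ensheathing and Schwann cells 5, 5, 4 and 5 of 5. Although still detected, 5 of 7 neuroblast markers in hippocampal cells and 7 of 8 in olfactory bulb cells were lower in neurons by a factor of 2 or more, and their summed signal was 13.8 and 14.4 in stem cells and 3.3 and 1.14 in neurons. That of the mature neuron list was 146.3 and 88.9 in stem cells and 26.9 and 13.5 in neurons. In stem cells Uchl1 (6.43 and 5.56) and Mapt (5.33 and 4.91) gave most of this sum, and both were lower in neurons. Of 11 mature neuron markers that entered, 4 and 5 were lower by a factor of 2 or more and 1 and 2 were higher. The other 6 and 4 differed by less. Snap25 was higher in neurons by 3.97 and 3.08, and the neuroblast marker Stmn2 by at least 5.83 and 5.01. Markers of several cell types were thus present, and a change in cell numbers and a change in RNA per cell cannot be told apart in any value below. The part of the marker shift in the channel results was not tested.

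Fewer channel genes than other genes were detected. Well above background were 18 of 41 members in hippocampal stem cells (43.9%, against 64.9% of all named genes), 20 in olfactory bulb stem cells (48.8% against 66.0%), 22 in hippocampal neurons (53.7% against 72.3%) and 25 in olfactory bulb neurons (61.0% against 77.3%). The lowest signal that counted was 11.4, 13.1, 15.6 and 8.52 on these 4 arrays, so the olfactory bulb neuron array registered the dimmest spots. No member's detection was compared statistically, since each group had 1 array.

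A group of 13 members was well above background on all 4 arrays: Kcna1, Kcnh2, Kcnj3, Kcnj4, Kcnj16, Scn8a, Cacna1b, Cacna1c, Cacnb1, Cacnb2, Cacnb3, Hcn2 and Hcn3. Another 13 were well above background on none (31.7%, against 20.3% of all named genes). They were Kcna4, Kcna5, Kcnb2, Kcnc1, Kcnc2, Kcnd2, Kcnq1, Kcnq3, Kcnj2, Kcnj6, Kcnma1, Scn1a and Scn2b. This undetected group holds the delayed rectifiers and A-type channels of fast-firing neurons, the M-current subunit gene Kcnq3 and the sodium channel gene Scn1a. Of 5 probed members of the Kv1 family, Kcna1, Kcna2 and Kcna3 were detected on some array, and none of the Shab, Shaw, Shal or KCNQ members was. A further 15 members were detected on 1 to 3 arrays. Kcna3, Kcnj8, Kcnn2, Kcnn3 and Scn9a were found on the 2 neuron arrays only, Kcna2 and Cacna1a on the olfactory bulb neuron array only, Kcnj11 on the 2 stem cell arrays only, and Kcnj10 on the olfactory bulb stem cell array only.

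**Figure D1:**
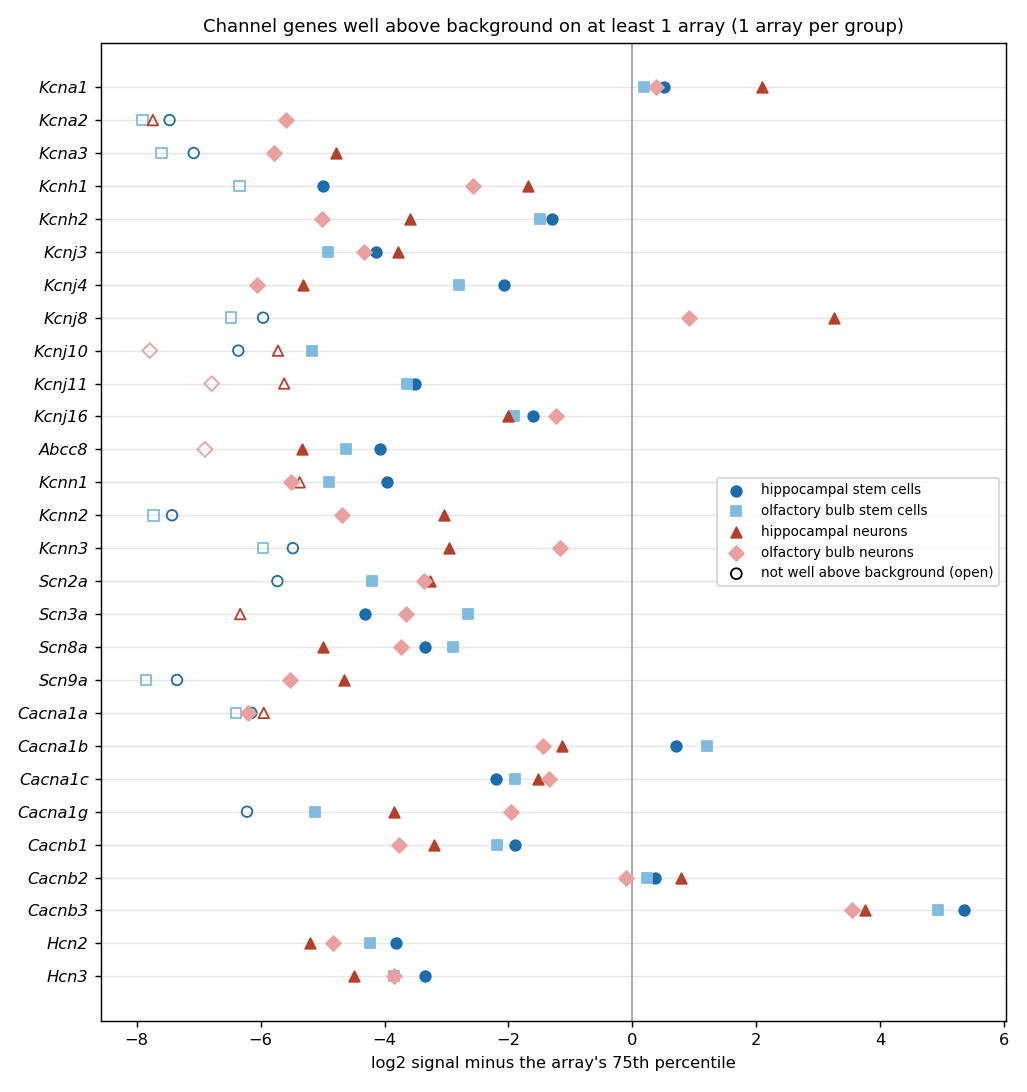
Levels of the 28 channel genes detected on any array, as log2 processed signal minus the 75th percentile of the array. Each symbol is 1 array and open symbols were not well above background; compare symbols within a row only. Kcnj8 reaches 3.26 and 0.91 on the neuron arrays from open symbols at -5.96 and -6.48, and Cacnb3 moves the other way.

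The first comparison asked how channel genes differed between neurons and the stem cells they came from. Both directions occurred in each source. In hippocampal cells, 7 of the 25 members that entered were higher in neurons by a factor of 2 or more (28.0%, against 21.9% of all 6656 genes that entered) and 12 were lower (48.0%, against 26.8%). In olfactory bulb cells, 5 of 28 were higher (17.9%, against 26.9% of 7022) and 8 were lower (28.6%, against 20.0%). Over members measured on both arrays, the median difference was -1.26 (15 genes) and -0.59 (17 genes), beside -0.49 and -0.14 for all genes measured in the same way. Kcnh1, Kcnj8, Kcnn2, Kcnn3 and Cacna1g were higher in both sources, which is 5 of the 7 and all 5 of the higher members. With normexp, Kcnn2 (0.61), Kcnn3 (0.41) and Cacna1g (0.17) were under the threshold in hippocampal cells, which left Kcnh1 and Kcnj8. Kcnn2 in olfactory bulb cells kept its place in 4 of 8 alternatives, with a lowest value of 0.49. Kcnh2, Kcnj4, Kcnj11, Abcc8, Cacna1b, Cacnb1 and Cacnb3 were lower in both, which is 7 of the 12 and 7 of the 8. Of all 6567 genes that entered in both sources, 18.5% were higher and 16.8% lower in both. No member was past the threshold in opposite directions in the 2 sources. Past 4-fold were 5 higher and 3 lower members in hippocampal cells (13.7% and 6.43% of all genes), and 4 and 4 in olfactory bulb cells (16.3% and 6.78%). With the 75th percentile taken over probes detected on all arrays, the hippocampal counts became 10 higher and 6 lower, with spike-in scaling 10 and 8, and with normexp 3 and 6. With quantile normalization, median scaling or spike-in scaling, the olfactory bulb counts became 4 higher and 12 lower, and with normexp 4 and 4.

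The only test that 4 arrays allow is an additive limma fit of state and source over all genes, with 1 residual degree of freedom per gene and p-values adjusted by Benjamini-Hochberg over all 7111 genes tested. For state it called 7 of 28 members higher in neurons (25.0%, against 19.4% of all genes) and 7 lower (25.0%, against 12.2%). The higher ones were Kcna3, Kcnh1, Kcnj8, Kcnn2, Kcnn3, Scn9a and Cacna1g, and the lower ones were the 7 named above. Kcnh1, Kcnh2, Kcnj4, Kcnj8 and Cacna1b were called under every alternative processing that tested them. The other 9 calls were lost under at least 1 alternative. The fit takes dim signals as measured, so its estimates for Kcna3, Kcnj8, Kcnn2, Kcnn3 and Scn9a, dim on both stem cell arrays, and for Kcnj11, dim on both neuron arrays, rest on undetected spots and can exceed the bounds. The arrays are pools, so these p-values measure what state and source leave unexplained among 4 arrays and not a spread between cultures.

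**Figure D2:**
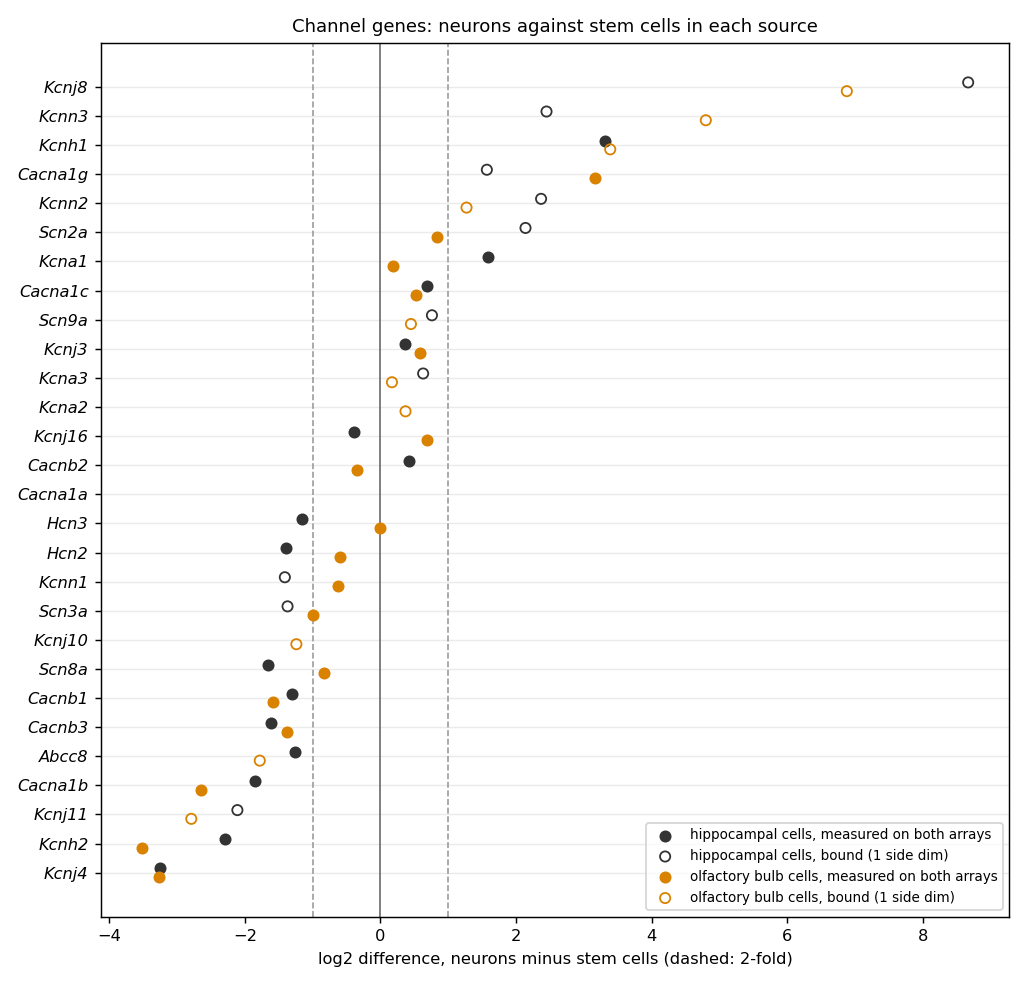
Log2 difference between neurons and stem cells for the 28 channel genes, in hippocampal (dark) and olfactory bulb (orange) cells, 1 array per group. Filled symbols were measured on both arrays, open symbols are bounds, and dashed lines mark a factor of 2. Kcnj8 stands at the top with bounds of 8.67 and 6.88, and Kcnj4 and Kcnh2 at the bottom reach -3.25 and -3.51.

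Among the inward rectifiers, the subunits of the ATP-sensitive channel parted. Kcnj11, the pore gene of this channel in pancreatic beta cells and many neurons, lay at -3.51 and -3.63 on the stem cell arrays and at -5.62 and -6.79 on the neuron arrays. Both neuron values were not well above background, so Kcnj11 was lower by at least 2.11 and 2.79. With normexp its differences were -1.09 and -0.82, of which the second was under the threshold. In the limma fit it fell by 2.64 ± 0.47 (SE, n = 4 arrays, adjusted p = 0.00693); the call was lost with normexp background correction (adjusted p = 0.0953). Abcc8, which encodes the receptor subunit that pairs with it, lay at -4.08 and -4.63 in stem cells and at -5.34 and -6.90 in neurons. It was not well above background on the olfactory bulb neuron array. Abcc8 was lower by 1.26 and by at least 1.78, and the limma fit gave a fall of 1.76 ± 0.47 (adjusted p = 0.0307). Of 9 alternatives, 4 did not call Abcc8, with adjusted p up to 0.257. All stem cell signals of Abcc8 were within 2.52 times the lowest signal that counted.

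Kcnj8, the other pore gene of ATP-sensitive channels, went the opposite way. It lay at -5.96 and -6.48 on the stem cell arrays, where it was not well above background, and at 3.26 and 0.91 on the neuron arrays. The 2 neuron values lay far above both stem cell values, with no overlap. Kcnj8 levels exceeded those of stem cells by at least 8.67 and 6.88, which is at least 409-fold and 118-fold. The limma fit gave a rise of 8.31 ± 0.56 (adjusted p = 0.000119), and normexp gave the lowest differences of the alternatives, 5.99 and 4.19. Abcc9, the receptor gene that pairs with Kcnj8, is no member but was on a companion list of other channel genes. It lay at -7.20 and -7.75 in stem cells, not well above background, and at -1.83 and -3.16 in neurons, higher by at least 3.59 and 2.80. Both Kcnj8 and Abcc9 mark pericytes and smooth muscle. All 10 pericyte, fibroblast and smooth muscle markers with a probe, Abcc9 among them, were higher in neurons in both sources. In the reference gene table Kcnj8 and Abcc9 are direct neighbours among protein-coding genes, and so are Kcnj11 and Abcc8.

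**Figure D3:**
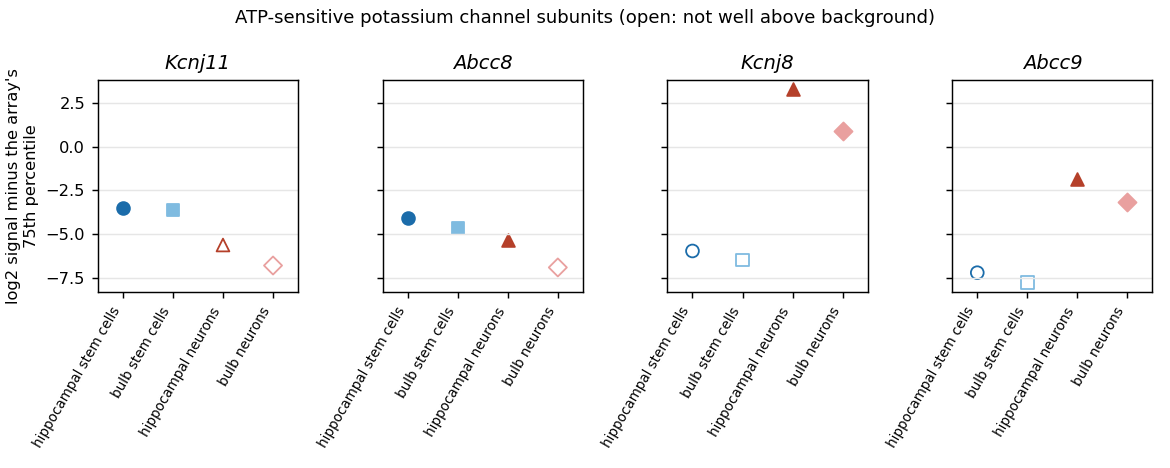
Levels of the 4 subunit genes of ATP-sensitive potassium channels on the 4 arrays, as log2 processed signal minus the 75th percentile of the array; open symbols were not well above background. Kcnj11 and Abcc8 are lower on both neuron arrays, while Kcnj8 and Abcc9 are higher.

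Kcnj4, a strong inward rectifier known from forebrain neurons, was lower in neurons in both sources. Its levels were -2.07 and -2.80 in stem cells and -5.31 and -6.06 in neurons, all well above background. The differences were -3.25 and -3.26, and the limma fit gave a fall of 3.25 ± 0.42 (adjusted p = 0.00195). On the neuron arrays its signal was only 1.29 and 1.28 times the lowest that counted. Kcnj10, the main potassium-buffering rectifier of astrocytes, was well above background only on the olfactory bulb stem cell array, at -5.17. It lay at -5.72 and -7.79 on the neuron arrays, not well above background, where all 10 astrocyte markers were. Kcnj16, which can join Kcnj10 in one channel, was between -2.0 and -1.23 on all arrays and differed by -0.39 and 0.69. Kcnj3, a subunit of G-protein-gated channels, differed by 0.36 and 0.59, and its usual partner Kcnj6 was not detected. A second Kcnj3 probe was not well above background on any array.

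Of the ether-a-go-go channels, Kcnh1 and Kcnh2 differed in opposite directions. Kcnh1, a slow voltage-gated channel also known from proliferating and tumour cells, lay at -4.99 and -6.34 in stem cells, of which the second was not well above background. In neurons it was at -1.69 and -2.57. It was higher by 3.31 and by at least 3.39, and the limma fit gave a rise of 3.54 ± 0.43 (adjusted p = 0.0015). The hippocampal stem cell signal was only 1.34 times the lowest that counted. With normexp the differences were 1.48 and 1.44, smaller but past the threshold. Kcnh2, the ERG channel of the heart's repolarising current, was well above background on all arrays, at -1.30 and -1.49 in stem cells and -3.59 and -5.01 in neurons. It was lower by 2.29 and 3.51, and the limma fit gave a fall of 2.90 ± 0.49 (adjusted p = 0.00545).

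In the Shaker family, Kcna1, a low-threshold channel of axons, was the one member detected on all arrays. Its levels were 0.51 and 0.19 in stem cells and 2.10 and 0.38 in neurons. The hippocampal neuron value stood above the other 3, which lay close together. The difference was 1.59 in the hippocampal and 0.19 in the olfactory bulb pair, and a second probe gave 1.85 and 0.59. It was not called by the limma fit (adjusted p = 0.222). Kcna3, known from immune cells and microglia, was at -4.78 and -5.79 on the neuron arrays and not well above background on the stem cell arrays. Its bounds of 0.63 and 0.17 did not reach a factor of 2, although the limma fit, which uses the dim signals as measured, called it (2.05 ± 0.43, adjusted p = 0.0134). That call was lost under 3 of 9 alternatives, with adjusted p up to 0.89. Kcna2, a partner of Kcna1 in axons, was detected only on the olfactory bulb neuron array, at -5.59.

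The small-conductance calcium-activated channels, which shape the pause after a spike, were divided. Kcnn3 was not well above background on the stem cell arrays (-5.48 and -5.96) and lay at -2.96 and -1.16 on the neuron arrays. The increase was at least 2.45 and 4.80, and limma gave a rise of 3.66 ± 0.62 (adjusted p = 0.00554, but 0.0667 with quantile normalization). Kcnn2 was not well above background in stem cells (-7.43 and -7.73) and lay at -3.04 and -4.69 in neurons. The increase was at least 2.37 and 1.27, and the limma estimate, taken against the undetected stem cell spots, was 3.72 ± 0.50 (adjusted p = 0.00224). The call for Kcnn2 was lost with normexp and with quantile normalization, where adjusted p reached 0.281. Kcnn1 went the other way in hippocampal cells, lower by at least 1.41, and differed by -0.62 in olfactory bulb cells. The large-conductance channel gene Kcnma1 was not detected with either of its 2 probes.

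Promoter windows are shown for the 4 members past 4-fold in both sources that the sequence table held, Kcnh1, Kcnj4, Kcnj8 and Kcnn3, and for Abcc9 as the neighbour and partner of Kcnj8. Each window runs 5′ to 3′ on the gene's strand, from 250 bases before to 50 after the annotated start, from RefSeq on build GRCr8. Capitals mark letters that match a motif on either strand. The motifs were the GC box, spelled GGGCGG, the box named for its letters TATAAA, the CCAAT box, spelled as its name, and the cyclic AMP response element, spelled TGACGTCA. The windows lie at chr4:177246499-177246798 for Kcnj8, chr4:177386299-177386598 for Abcc9 and chr7:112954498-112954797 for Kcnj4, all on the minus strand, and at chr13:106252966-106253265 for Kcnh1 and chr2:177234090-177234389 for Kcnn3, both on the plus strand.
Kcnj8: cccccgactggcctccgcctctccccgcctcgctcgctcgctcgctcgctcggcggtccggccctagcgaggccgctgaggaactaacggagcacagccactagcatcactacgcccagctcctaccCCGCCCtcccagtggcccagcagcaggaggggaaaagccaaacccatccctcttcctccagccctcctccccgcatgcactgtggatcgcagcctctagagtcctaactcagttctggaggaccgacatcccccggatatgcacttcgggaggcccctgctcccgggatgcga
Abcc9: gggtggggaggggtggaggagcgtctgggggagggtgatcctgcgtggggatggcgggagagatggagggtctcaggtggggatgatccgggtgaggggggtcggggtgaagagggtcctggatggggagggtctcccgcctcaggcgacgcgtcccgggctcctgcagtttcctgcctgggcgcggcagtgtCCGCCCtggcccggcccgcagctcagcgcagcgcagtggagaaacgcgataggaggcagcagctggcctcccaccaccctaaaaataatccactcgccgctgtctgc
Kcnh1: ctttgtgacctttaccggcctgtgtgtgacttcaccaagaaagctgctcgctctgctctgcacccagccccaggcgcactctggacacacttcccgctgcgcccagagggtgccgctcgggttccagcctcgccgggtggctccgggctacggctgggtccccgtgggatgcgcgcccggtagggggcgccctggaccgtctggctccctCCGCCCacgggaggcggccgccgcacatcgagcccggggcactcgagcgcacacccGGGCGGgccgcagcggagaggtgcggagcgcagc
Kcnn3: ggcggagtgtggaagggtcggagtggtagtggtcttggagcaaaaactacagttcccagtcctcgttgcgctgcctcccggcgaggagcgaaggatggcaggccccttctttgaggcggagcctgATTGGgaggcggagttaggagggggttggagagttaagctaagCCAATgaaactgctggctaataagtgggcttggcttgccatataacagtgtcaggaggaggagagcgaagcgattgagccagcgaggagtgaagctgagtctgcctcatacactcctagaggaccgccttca
Kcnj4: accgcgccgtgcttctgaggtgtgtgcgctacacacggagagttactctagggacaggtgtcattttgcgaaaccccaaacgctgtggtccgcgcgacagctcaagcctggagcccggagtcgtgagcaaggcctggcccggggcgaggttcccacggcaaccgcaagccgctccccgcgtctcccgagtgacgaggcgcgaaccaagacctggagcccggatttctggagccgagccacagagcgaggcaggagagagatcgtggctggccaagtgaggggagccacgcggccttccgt
Kcnj8 and Abcc9 each held 1 GC box, Kcnh1 held 2, and Kcnj4 and Kcnn3 none. Kcnn3 held 2 CCAAT boxes, and no window held a TATA box or a cAMP response element. The windows of Kcnj8, Abcc9, Kcnh1, Kcnn3 and Kcnj4 held 23, 21, 32, 13 and 30 CpG pairs. A GC box stood in 53.6% of the 28 member promoters in the table, in 47.3% of the 7258 promoters of named genes and in 33.1% of all 33469 windows. A CCAAT box stood in 28.6%, 39.0% and 37.5% of these. A TATA box stood in 0 of 28 member promoters, in 13.4% of those of named genes and in 14.2% of all windows, and a cAMP response element in 0 of 28, 2.51% and 1.83%. The median number of CpG pairs was 23 in member promoters, 15 in those of named genes and 7 in all windows. Each match is a match of letters and describes no binding.

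Sodium channel genes showed smaller differences between states. Scn2a, a main channel of the axon initial segment in young neurons, was dim in hippocampal stem cells (-5.73, not well above background) and lay at -4.20 on the other stem cell array and at -3.27 and -3.37 in neurons. The hippocampal difference was at least 2.14 (0.47 with normexp), and that of olfactory bulb cells was 0.83. Its second probe was dim on the same array. Scn8a, the channel of mature axons and nodes, was at -3.34 and -2.89 in stem cells and at -5.00 and -3.73 in neurons, with differences of -1.66 and -0.83. Scn3a, an embryonic and early postnatal channel, had a bound of -1.37 for the hippocampal pair and came just short of the threshold in the other. The limma fit called none of the 3 for state (adjusted p of 0.0574, 0.0803 and 0.0514), although 1, 2 and 2 of the alternatives did. Scn9a, a channel known from peripheral sensory neurons, was detected only on the neuron arrays, at -4.65 and -5.52, with bounds of 0.76 and 0.45. The fit called it (2.51 ± 0.43, adjusted p = 0.00585), but its second probe was not well above background on any array, and the call was lost under 3 of 9 alternatives: the mean over both probes, quantile normalization and normexp (adjusted p up to 0.891). Scn1a and the beta subunit gene Scn2b were not detected.

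Among calcium channel pore genes, Cacna1b and Cacna1g went in opposite directions. Cacna1b, the N-type channel of presynaptic terminals, lay at 0.71 and 1.21 in stem cells and at -1.14 and -1.44 in neurons, without overlap. It was lower by 1.85 and 2.65, and the limma fit gave a fall of 2.25 ± 0.45 (adjusted p = 0.011). A second probe of Cacna1b, undetected in the hippocampal samples, gave -0.98 for the olfactory bulb pair. Cacna1g, a low-threshold T-type channel, was dim in hippocampal stem cells (-6.22, not well above background) and lay at -5.13 in those of the olfactory bulb. Its neuron levels were -3.85 and -1.96. It was higher by at least 1.57 and by 3.17, with a limma estimate of 2.77 ± 0.45 (adjusted p = 0.00479, but 0.165 with normexp). Cacna1c, the widespread L-type channel, differed by 0.69 and 0.53 with levels from -2.20 to -1.35. Its second probe was not well above background on any array. Cacna1a, the P/Q-type channel, was detected only on the olfactory bulb neuron array, at 1.15 times the lowest signal that counted, and no fold is given.

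The beta subunits bring the calcium channel pore to the membrane. Cacnb3, the usual partner of N-type channels, lay at 5.36 and 4.93 in stem cells and at 3.75 and 3.55 in neurons. It was lower by 1.61 and 1.38, with a limma estimate of -1.49 ± 0.43 (adjusted p = 0.0391). Cacnb1 was lower by 1.31 and 1.59 (limma -1.45 ± 0.43, adjusted p = 0.0433). Both calls depended on the scaling and were lost with the 75th percentile over probes detected on all arrays, among others. The highest adjusted p over the alternatives was 0.0957 for Cacnb3 and 0.0922 for Cacnb1. Cacnb2 differed by 0.42 and -0.34. Hcn2 and Hcn3, which carry the pacemaker current, were lower by 1.40 and 1.15 in hippocampal cells and differed by -0.59 and 0.00 in olfactory bulb cells. Neither was called by the limma fit (adjusted p of 0.141 and 0.397).

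The second comparison asked how channel genes differed between olfactory bulb and hippocampal cells of the same state, within 1 slide each. Few members differed among stem cells: 2 of 21 were higher in olfactory bulb cells (9.52%, against 4.17% of all genes) and 0 were lower (against 6.97%). The count of 2 became 0 with normexp and 7 with spike-in scaling, which moved the median of all genes from -0.44 to 0.34. In neurons, 4 of 26 were higher (15.4%, against 7.66%) and 6 were lower (23.1%, against 8.00%), which became 2 and 2 with normexp. Past 4-fold, stem cells had 0 members either way (against 0.680% higher and 0.946% lower), and neurons had 1 higher, Scn3a, and 1 lower, Kcnj8 (against 2.17% and 2.73%). The median over members measured on both arrays was -0.31 (17 genes) and -0.55 (21 genes), beside -0.44 and -0.04 for all genes. The limma fit called 0 of 28 members for source and 0 of 7111 genes (0.00%). At an unadjusted p under 0.05 it listed 4 members, Kcnh1, Kcnj8, Scn3a and Cacna1g, and 399 genes in all (5.61%). With 4 arrays, 0 calls leave the size of any source difference unsettled. The state and source comparisons share arrays and are not independent of each other.

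Scn3a was the one member higher in olfactory bulb cells in both states. Its levels were -4.32 and -2.65 in stem cells, and -6.33 (not well above background) and -3.65 in neurons. It was higher by 1.67 in stem cells and by at least 2.04 in neurons, and the limma estimate was 2.18 ± 0.47 (adjusted p = 0.751). With normexp both Scn3a differences were under the threshold, at 0.56 and 0.92. Of all 5914 genes that entered in both states, 0.372% were higher in both. Scn2a was higher by at least 1.21 in olfactory bulb stem cells (0.07 with normexp) and differed by -0.10 in neurons. For Scn8a the differences were 0.44 between stem cells and 1.27 between neurons. Of 7 neuroblast markers that entered the comparison of stem cells, 2 were higher (Dcx by 2.28 and Elavl3 by 1.19) and 1 was lower (Tubb3, -1.18), and their part in the sodium channel values was not tested.

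The other differences lay between the 2 neuron arrays. Kcnn3 (1.80) and Cacna1g (1.89) were higher in olfactory bulb neurons. Lower there were Kcnj8 by 2.35, Kcna1 by 1.72, Kcnn2 by 1.65, Kcnh2 by 1.42, Abcc8 by at least 1.08 and Kcna3 by 1.01. With normexp, Kcnn2 (-0.67), Kcnh2 (-0.53), Abcc8 (-0.13) and Kcna3 (-0.31) were under the threshold. Kcnj8, Kcna1, Kcnn3 and Cacna1g stayed past it. Kcnj8 and Abcc9 (-1.34) were both lower in olfactory bulb neurons. Among the other pericyte, fibroblast and smooth muscle markers, Tagln, Cnn1 and Des were lower by 1.08, 1.33 and 1.63. Dcn and Lum were higher by 2.41 and 1.57, while the pericyte markers Pdgfrb and Rgs5 differed by -0.82 and 0.35. Of the olfactory ensheathing and Schwann cell markers, 4 of 5 were higher in olfactory bulb neurons, led by Ngfr (4.95). The part of these markers in the channel values was not tested.

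**Figure D4:**
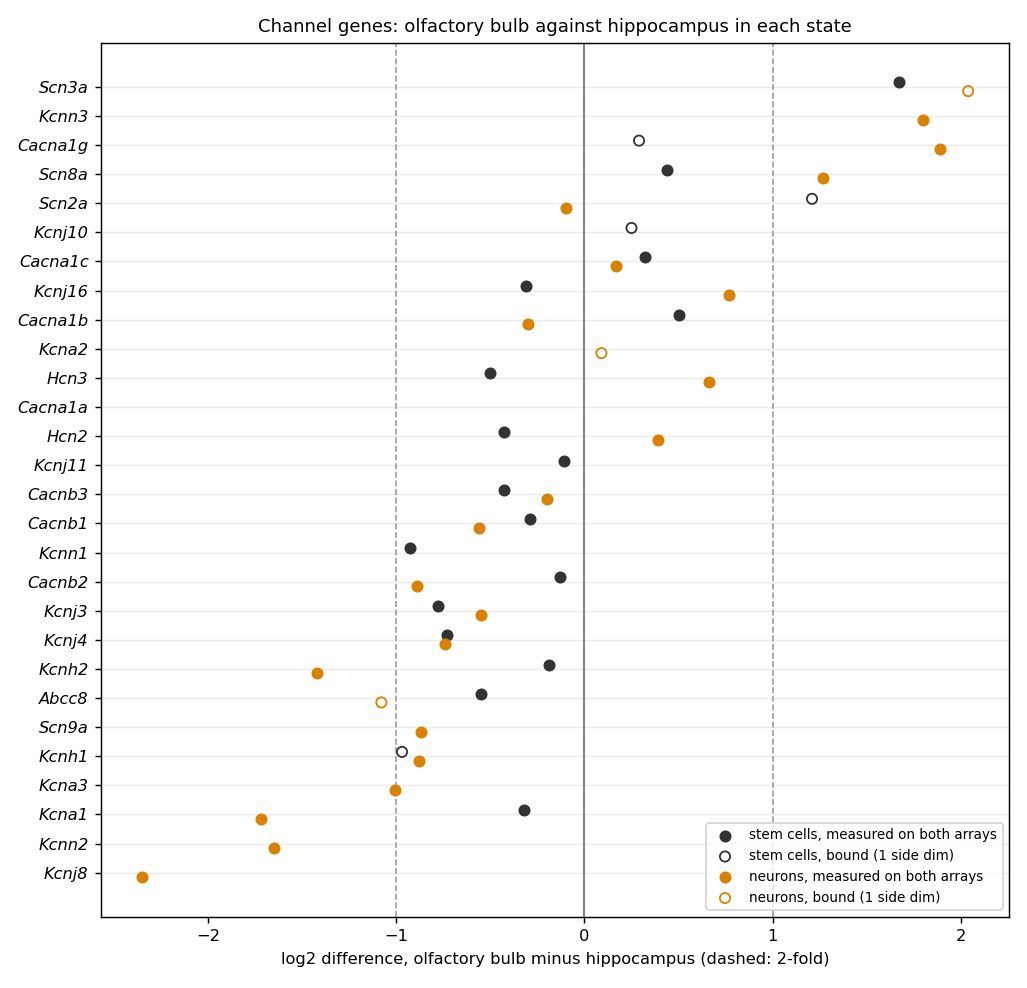
Log2 difference between olfactory bulb and hippocampal cells for the channel genes in stem cells (dark) and neurons (orange), 1 array per group. Filled symbols were measured on both arrays, open symbols are bounds, genes without a fold have no symbol, and dashed lines mark a factor of 2. Scn3a is past a factor of 2 to the right in both states, and Kcnj8 lies farthest left at -2.35 in neurons.

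Other channel genes, from a companion list of 90 of which 73 had a probe, also differed in both directions. In hippocampal cells, 14 of 47 were higher (29.8%, against 21.9% of all genes) and 10 lower in neurons (21.3%, against 26.8%). In olfactory bulb cells, 20 of 52 were higher (38.5%, against 26.9%) and 10 lower (19.2%, against 20.0%). More companion genes were thus higher than lower, while more members were lower than higher. This difference was not tested, and the member side depends on the scaling. With the 75th percentile over probes detected on all arrays, 10 members were higher and 6 lower in hippocampal cells, and with spike-in scaling 10 and 8. In olfactory bulb cells the same settings gave 6 and 7, and 4 and 12. The companion counts were not run under the alternatives. The limma fit for state called 17 of 54 companion genes higher and 7 lower, beside 19.4% and 12.2% of all genes. Past 4-fold were 12 higher and 3 lower companion genes of 47 in hippocampal cells, against 13.7% and 6.43% of all genes. In olfactory bulb cells these were 11 and 5 of 52, against 16.3% and 6.78%. Past 4-fold in both sources were 11 of the 45 genes that entered in both, of which 8 were higher. The share of all genes past 4-fold in both sources was not computed, so that count has no background. Kcnk2, a mechanically gated background potassium channel, was higher by at least 8.96 and 8.70. Scn4b, a sodium channel beta subunit gene, was higher by 5.60 and 6.44, and the intermediate-conductance channel gene Kcnn4 by 2.93 and 3.14. Kcns3, Kcnh6 and Kcnk13 were higher by bounds of 3.51 and 4.55, 3.56 and 4.85, and 5.65 and 2.92. Lower were Kcnk10 (by at least 4.97 and by 2.65), the neuronal beta subunit gene Kcnmb4 of the large-conductance channel (3.30 and 2.71) and Kcnh3 (2.51 and 2.98).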

How the data were processed

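RNA of 4 rat cell samples was measured on 4 arrays. The authors deposited spot intensity values, read with Agilent Feature Extraction 10.5.1.1 per the submitters' processing notes, which subtracted background within each array per the file headers; no normalization between arrays is recorded there. The deposited series table held the same intensities (largest difference 0). No spot was saturated.

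The log2 of that signal minus the array's 75th percentile was used; 254 of 41012 non-control probes with outlier spots were left out, and spots of a probe were averaged. Probe accessions were matched without version to RefSeq gene names of assembly GRCr8, used for names only, since the headers name rn4. Of 40758 probes, 10783 had 1 symbol, 0 several and 29975 none. A gene was represented by its brightest probe on average. Spots of probes printed 10 times had a median log2 SD between 0.0610 and 0.0935, which is spot noise. Tests used limma 3.58.1 in R 4.3.3 on genes well above background on at least 1 array, at an adjusted p under 0.05, and were checked on simulated data. The number of arrays limits the precision.

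The members and lists were chosen with earlier results of these data known. All members are reported, those past 4-fold with every array's value; companion genes are named in the report when past 4-fold in both sources. Marker lists covered stem and progenitor, neuroblast, mature neuron, astrocyte, pericyte, oligodendrocyte, microglial, endothelial, and ensheathing and Schwann cells. Whether a probe also binds a related channel's RNA was not tested. Some companion genes are not reported here.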

Additional observations from a re-analysis of the deposited data

How the results depend on the processing

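Alternatives were normexp (offset 50, on spot medians, as the files hold no spot means), quantile normalization, median scaling, the 75th percentile over probes detected on all arrays, the deposited series table, the mean over probes, 2 filters on dim probes, an intensity trend in the fit and, chosen after seeing the data, spike-in scaling. None of the 44 member differences past a factor of 2 reversed, and 19 stayed past it in every alternative that measured them. With the scanner software's looser detection call, 27, 28, 31 and 35 members were detected. The share of all named genes was not computed for that call, so the comparison with other genes rests on the stricter call.

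The hippocampal state counts of 7 higher and 12 lower became 3 and 6 with normexp, and 1 higher when only genes detected on all arrays were used; 6 were lower with the 75th percentile over detected probes. In olfactory bulb cells, the 5 higher and 8 lower became 4 lower with normexp, 0 higher and 5 lower among genes detected on all arrays, and 10 higher without a filter. For source in stem cells, the 2 higher became 0 with normexp and among genes detected on all arrays, 5 (and 2 lower) without a filter and 7 with spike-in scaling. In neurons, the 4 higher and 6 lower became 2 and 2 with normexp and 1 and 2 among genes detected on all arrays. The limma state calls of 7 higher and 7 lower became 3 and 4 with normexp, 3 higher with quantile normalization, 11 lower with median scaling, 4 lower with the 75th percentile over detected probes, and 0 higher among genes detected on all arrays, where 13 members were tested. An added offset shrinks differences of dim genes by construction, and the filters change which genes enter. The normexp run also differed in its spot measure and background correction, and the offset was not varied. The cause of these shifts was not tested.

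The median state difference of all genes was -0.49 and -0.14, while median scaling gave -0.95 and -0.68, and spike-in scaling -0.09 and -0.66, so differences near a factor of 2 depend on the scaling. No pairing by replicate was possible because each group had 1 array and no replicate numbers. The limma fit has source as a term beside state, which pairs neurons with stem cells of the same source. A replicate block and leaving out replicates were not run.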

Other observations

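A few channel genes of the companion list, chosen after their values were seen, differed between the 2 sources. Scn11a, a sodium channel known from sensory neurons, was at -4.92 on 1 array and between -0.96 and -0.55 on the rest; the low array was that of olfactory bulb neurons. Kcnj13, an inward rectifier of choroid plexus and retinal pigment epithelium, was well above background only on the hippocampal neuron array, at -1.71. Kcnj5 and Kcnv1, at -3.62 and -3.87, were well above background only on the olfactory bulb neuron array. Cacna2d1, an auxiliary calcium channel subunit gene, was at 1.73 on the hippocampal stem cell array and between 3.74 and 4.30 on the other 3.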
